A study of Bos taurus with 18 samples.

Results

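Steroid and related hormone receptor genes were followed across 4 compartments of the bovine ovary. The set was a given list of 8 genes, found by symbol in the array's annotation: ESR1, ESR2, PGR, NR3C1, NR3C2, VDR, PGRMC1 and PGRMC2. All 8 were measured, among 18010 genes with a transcript cluster (the probes of 1 transcript region) that carries a single gene symbol. ESR1 and PGR had a second, dimmer cluster, and the brighter of each pair stood for the gene.

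The arrays came from non-pregnant Bos taurus cows collected at an abattoir, and the labels name no treatment. Theca, the steroid-producing layer of the follicle wall, was dissected from healthy small antral follicles below 5 mm, with 1 follicle from 1 animal on each of 6 arrays. The other compartments were cut by laser from stained cortex sections: tunica albuginea, which is the dense collagenous sheath below the surface, stroma close to follicles, and interstitial stroma. Each of these had 4 arrays, and RNA of different animals was pooled for an array. Theca RNA was also extracted with a different kit, so collection, pooling and kit cannot be told apart from compartment wherever theca is compared. The number of animals behind a pool, and any sharing of animals between pools, is not given in the sources used here, so p-values measure only the spread between these arrays.

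These receptors carry the signals of the steroid hormones that the ovary makes or receives. ESR1 and ESR2 bind oestradiol, PGR binds progesterone, NR3C1 binds glucocorticoids, NR3C2 binds mineralocorticoids and also glucocorticoids, and VDR binds the active form of vitamin D. Each of these is a transcription factor of the nuclear receptor family that binds DNA once its ligand is present. PGRMC1 and PGRMC2 are haem-binding membrane proteins of another family, named for an association with progesterone binding.

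The median cluster of each array stood at a log2 signal of 4.1. Without detection calls, a signal under that median may be no more than background. Markers of cell types were set against the labels. The 5 measured steroidogenic theca markers averaged 8.9 to 10.1 log2 units on theca arrays, against 2.94 to 3.4 in tunica albuginea, 2.98 to 3.3 in stroma close to follicles and 2.88 to 3.16 in interstitial stroma, where none of the 5 exceeded the array median. The 6 markers of stromal fibroblasts were above the median in all 4 compartments. Against the laser-captured mean, 2 of them were higher in theca and 3 lower. PDGFRA and TCF21 were lower in theca (8.3 and 6.82) than in tunica albuginea (9.33 and 8.95), stroma close to follicles (9.45 and 8.6) and interstitial stroma (9.6 and 9.03). COL1A1 and COL3A1 had higher means in theca (8.63 and 9.08) than in stroma close to follicles (6.93 and 7.55) and interstitial stroma (7.58 and 8.08). In tunica albuginea they averaged 9.05 and 8.2. Of 5 measured markers of smooth muscle and pericytes, 4 were lower in theca than in the laser-captured mean and 1, RGS5, was higher, with a median difference of -2.15. MYH11, for example, averaged 7.28 in theca, against 9.43 in tunica albuginea, 9.68 in stroma close to follicles and 9.65 in interstitial stroma. The 6 endothelial markers averaged 6.27 to 6.62 on theca arrays, against 3.58 to 4.02 in tunica albuginea, 4.35 to 5.03 in stroma close to follicles and 4.37 to 5.63 in interstitial stroma. The 6 granulosa markers averaged 4.68 to 5.25 on theca arrays and 3.18 to 3.9 on laser-captured arrays. Against the laser-captured mean, 5 of the 6 were higher in theca and 1, FOXL2, was lower. That is 83.3% and 16.7%, beside 19.6% and 22.2% of all clusters. INHA (7.52) and FST (7.23) had the highest theca means, and FSHR and AMH both averaged 4.38 there. CYP19A1 (2.98) and FOXL2 (2.85) were under the array median in theca, although CYP19A1 was higher there than in the laser-captured mean (0.49, limma adjusted p = 0.025). The part of these cells in the receptor differences was not tested.

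Of the 8 receptor genes, 2 were higher in theca than in the mean of the laser-captured compartments (PGR and PGRMC1) and 3 were lower (ESR1, ESR2 and NR3C2) at an adjusted p below 0.05. In the same comparison 41.9% of all 26773 clusters passed, 19.6% higher and 22.2% lower, so a call in this comparison was common on the array. The median difference of the 8 genes was -0.19 log2 units, against -0.04 over all clusters. The F test over all 4 compartments passed for the same 5 genes, beside 36.4% of all clusters, and did not pass for NR3C1 (adjusted p = 0.057), VDR or PGRMC2. In a whole tissue sample, fewer cells of a type that expresses a receptor and less of its RNA per cell cannot be told apart.

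**Figure D1:**
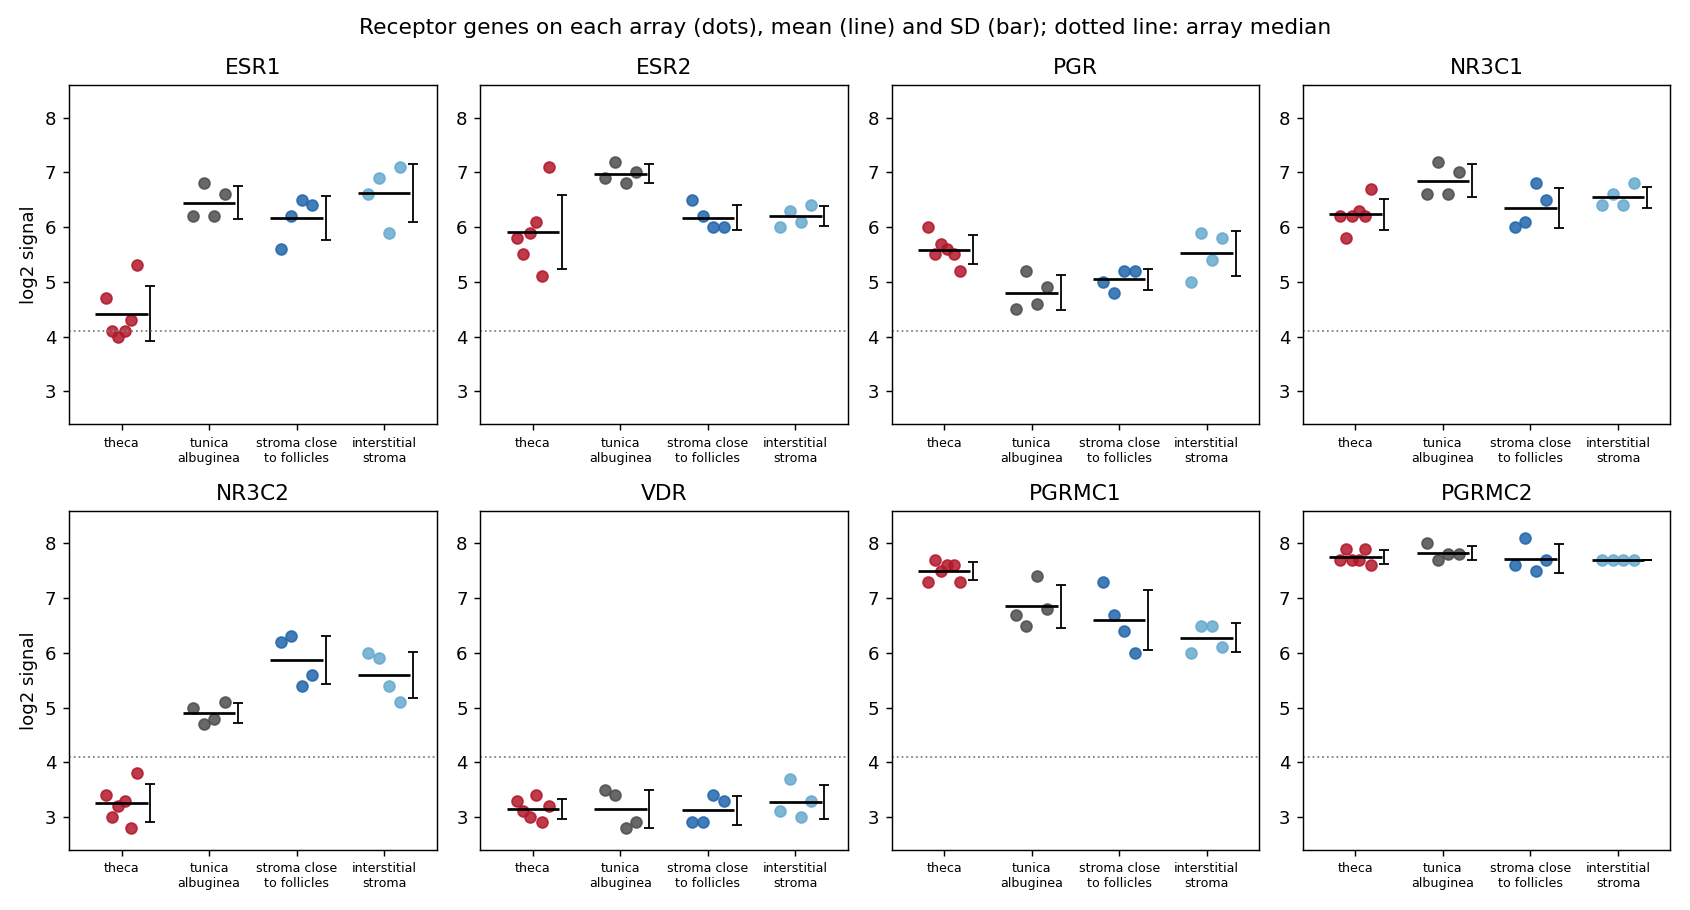
Log2 signal of the 8 receptor genes on each of the 18 arrays, 1 panel per gene, with theca on the left and tunica albuginea, stroma close to follicles and interstitial stroma to its right. Dots are arrays, the line is the mean, the bar is the SD (n = 6 for theca, 4 for each other compartment) and the dotted line is the array median of 4.1; ESR1 and NR3C2 in theca lie below every laser-captured array, and VDR lies under the dotted line throughout.

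ESR1, the main oestrogen receptor of stromal tissues, was low in theca. It lay at 4 on the lowest theca array, 4.2 at the median and 5.3 on the highest, against 6.2, 6.8, 6.2 and 6.6 in tunica albuginea, 5.6, 6.2, 6.5 and 6.4 in stroma close to follicles, and 6.6, 6.9, 5.9 and 7.1 in interstitial stroma. Theca overlapped with none of the other compartments. The mean in theca was 4.42 ± 0.50 (SD, n = 6), and the difference from interstitial stroma was -2.21 ± 0.27 log2 units (SE; limma adjusted p = 7.4e-06), a 4.62-fold lower signal. Against tunica albuginea the difference was -2.03 (adjusted p = 1.4e-05) and against stroma close to follicles -1.76 (adjusted p = 7.2e-05). The theca median of 4.2 was close to the array median of 4.1, where a signal may be background, so these differences may be lower limits. Of all clusters, 1.73% differed by more than ESR1 between theca and the laser-captured mean. The smooth muscle markers MYH11, CNN1, DES and MYOCD were lower in theca too (differences of -2.30, -2.15, -2.01 and -2.27 from the laser-captured mean). RGS5, the other measured gene of that marker list, was higher in theca (8.23, against 3.73 in tunica albuginea, 5.03 in stroma close to follicles and 6.5 in interstitial stroma). The part of these cells in the ESR1 and NR3C2 differences was not tested.

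Among the laser-captured compartments ESR1 did not pass in any pair. Tunica albuginea minus interstitial stroma was -0.17, with a 95% interval of -0.79 to 0.44. Stroma close to follicles minus interstitial stroma was -0.45 (-1.07 to 0.17). Differences inside these intervals are not excluded. The second ESR1 cluster disagreed with the first: it stood at 4.1 in theca, 4.15 in tunica albuginea, 4.1 in stroma close to follicles and 4.22 in interstitial stroma, near the array median, and theca differed from the laser-captured mean by -0.06 ± 0.15 (limma adjusted p = 0.79).

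ESR2, the oestrogen receptor best known from granulosa cells, was highest in tunica albuginea. Its values there were 6.9, 7.2, 6.8 and 7.0, against 6.5, 6.2, 6.0 and 6.0 in stroma close to follicles and 6.0, 6.3, 6.1 and 6.4 in interstitial stroma. Every tunica albuginea array was above every array of both kinds of stroma, yet the differences of 0.80 ± 0.28 and 0.78 ± 0.28 did not pass (limma adjusted p = 0.15 and 0.22). Fitted on the compared arrays alone, they passed (adjusted p = 0.0406 and 0.0461). Of all clusters, 4.89% and 3.53% differed by more in these comparisons. The share that separates without overlap is not given here. In theca the lowest array was at 5.1, the median was 5.85 and the highest 7.1, which overlapped with all other compartments. ESR2 was lower in theca than in tunica albuginea by -1.06 ± 0.26 (limma adjusted p = 0.004), in a comparison in which 34.4% of clusters passed, 16.3% higher and 18.1% lower.

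The high theca value of ESR2 was that of 1 array, replicate 6. Without it, ESR2 was lower in theca than in interstitial stroma (adjusted p = 0.037) and stroma close to follicles (adjusted p = 0.044), and its excess in tunica albuginea passed over interstitial stroma (adjusted p = 0.048) and over stroma close to follicles (adjusted p = 0.023), since the spread is shared by all groups. The lower level of ESR2 in theca than in the laser-captured mean (-0.53 ± 0.20, limma adjusted p = 0.04) was lost without any of 10 single arrays: theca replicate 1, 2, 3 or 5, interstitial stroma 2 or 4, stroma close to follicles 1 or 2, or tunica albuginea 2 or 4, with adjusted p up to 0.13.

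PGR, the nuclear progesterone receptor, followed another order: highest in theca and interstitial stroma and lowest in tunica albuginea. Theca arrays lay between 5.2 and 6, with a median of 5.55, against 4.5, 5.2, 4.6 and 4.9 in tunica albuginea, 5.0, 4.8, 5.2 and 5.2 in stroma close to follicles and 5.0, 5.9, 5.4 and 5.8 in interstitial stroma. Theca touched the top of tunica albuginea and of stroma close to follicles at 5.2, and overlapped in part with interstitial stroma, whose lowest array (5.0) was below theca and whose other arrays lay inside its range. PGR was higher in theca than in tunica albuginea by 0.78 ± 0.19 (limma adjusted p = 0.0033) and than in stroma close to follicles by 0.53 ± 0.19 (adjusted p = 0.037). In the second of these comparisons 31.1% of clusters passed, 15.4% higher and 15.6% lower.

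Theca and interstitial stroma did not differ detectably in PGR (0.06, 95% interval -0.33 to 0.45). The call against stroma close to follicles was lost without theca replicate 1, 3 or 4 or stroma close to follicles 1 or 2 (adjusted p up to 0.11), and when arrays were centred on their brighter clusters (0.45, adjusted p = 0.0716). The call against the laser-captured mean (0.46 ± 0.14, adjusted p = 0.016) was lost without theca replicate 1 (adjusted p = 0.054). Tunica albuginea minus interstitial stroma was -0.72 ± 0.20 (limma adjusted p = 0.092), and passed without interstitial replicate 1 (adjusted p = 0.04). The second PGR cluster lay below the array median in all compartments (2.90 to 3.27) and passed in no comparison.

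NR3C1, the glucocorticoid receptor, differed little. Theca arrays ranged from 5.8 to 6.7 with a median of 6.2, against 6.6, 7.2, 6.6 and 7.0 in tunica albuginea, 6.0, 6.1, 6.8 and 6.5 in stroma close to follicles and 6.4, 6.6, 6.4 and 6.8 in interstitial stroma. All groups overlapped. NR3C1 was lower in theca than in tunica albuginea by -0.62 ± 0.18 (limma adjusted p = 0.014), a call lost without tunica albuginea replicate 2 (adjusted p = 0.06). Against the laser-captured mean the difference was -0.35 ± 0.14 (adjusted p = 0.056), and it passed without theca replicate 6, stroma close to follicles 1 or 2, or tunica albuginea 1 or 3 (lowest adjusted p = 0.018).

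NR3C2, the mineralocorticoid receptor, was the receptor gene with the widest range, 2.8 to 6.3, and 92.2% of its variance lay between compartments. Theca arrays had a lowest value of 2.8, a median of 3.25 and a highest of 3.8, all below the array median. In tunica albuginea the values were 5.0, 4.7, 4.8 and 5.1, in stroma close to follicles 6.2, 6.3, 5.4 and 5.6, and in interstitial stroma 6.0, 5.9, 5.4 and 5.1. Theca overlapped with no other compartment, and tunica albuginea did not overlap with stroma close to follicles.

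NR3C2 was lower in theca than in stroma close to follicles by -2.62 ± 0.22 log2 units (limma adjusted p = 9e-08; 6.17-fold), than in interstitial stroma by -2.35 (adjusted p = 4e-07) and than in tunica albuginea by -1.65 (adjusted p = 1.5e-05). If the theca signal is background, these differences are lower limits. In the comparison of theca with interstitial stroma 28.9% of clusters passed, 14.4% higher and 14.6% lower. NR3C2 and ESR1 were the 2 receptor genes at which theca overlapped with no laser-captured array. The share of all clusters without such overlap is not given here. Of all clusters, 1.31% differed by more than NR3C2 between theca and the laser-captured mean.

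NR3C2 was also the 1 receptor gene that passed between laser-captured compartments. It was lower in tunica albuginea than in stroma close to follicles by -0.97 ± 0.24 (limma adjusted p = 0.029), where 3.8% of all clusters passed, 1.85% higher and 1.95% lower. The call was lost without stroma close to follicles 1 or 2 or tunica albuginea 2 or 3 (adjusted p up to 0.1), and when only the 8 arrays of these compartments were fitted (adjusted p = 0.0641). Against interstitial stroma tunica albuginea had a difference of -0.70 ± 0.24 (adjusted p = 0.19).

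The means of oocyte markers and of NR3C2 had the same order of laser-captured compartments. The mean of 6 oocyte markers was 3.35, 3.18, 3.17 and 3.07 in tunica albuginea, where none of the 6 exceeded the array median, 5.45, 5.83, 4.08 and 4.45 in stroma close to follicles (4 of 6 above it) and 4.32, 4.22, 3.77 and 3.72 in interstitial stroma (2 of 6). In both kinds of stroma, replicates 1 and 2 had more oocyte marker signal and more NR3C2 signal than replicates 3 and 4. Within tunica albuginea the array with the most NR3C2 (5.1) had the lowest oocyte marker mean (3.07). Interstitial replicates 1 and 2 also had higher means of smooth muscle and pericyte markers (7.92 and 7.70, against 6.80 and 7.22) and of endothelial markers (5.50 and 5.63, against 4.37 and 5.22). Endothelial means did not split this way in stroma close to follicles (4.72, 4.48, 5.03 and 4.35). On theca arrays the oocyte markers averaged 3.03 to 3.25. The same replicates 1 and 2 of stroma close to follicles had the lower NR3C1 values (6.0 and 6.1) and the higher PGRMC1 values (7.3 and 6.7) of their group. The part of oocytes, or of the other cells, in these receptor levels was not tested.

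**Figure D2:**
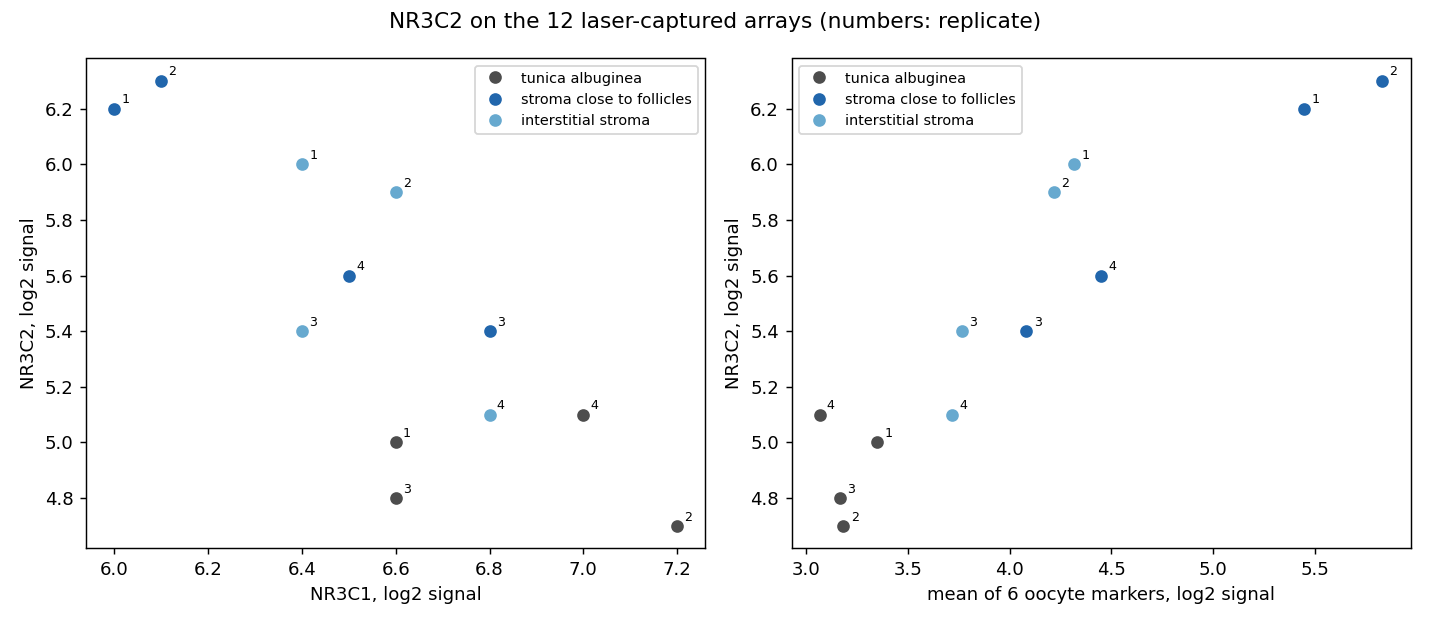
NR3C2 log2 signal (y axis, both panels) on the 12 laser-captured arrays against NR3C1 log2 signal (left) and against the mean log2 signal of 6 oocyte markers (right); numbers beside the dots are replicates. Replicates 1 and 2 of stroma close to follicles have the highest NR3C2 (6.2 and 6.3), the lowest NR3C1 (6.0 and 6.1) and the highest oocyte marker means (5.45 and 5.83), and the 4 tunica albuginea arrays lie at an NR3C2 signal of 5.1 or below.

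VDR lay under the array median on all 18 arrays, between 2.8 and 3.7, so its level could not be told from background in any compartment. Theca averaged 3.15 ± 0.19 (SD, n = 6), tunica albuginea 3.15 ± 0.35, stroma close to follicles 3.13 ± 0.26 and interstitial stroma 3.28 ± 0.31 (SD, n = 4 each). No pair passed, and the 95% interval of theca minus tunica albuginea was -0.36 to 0.36.

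PGRMC1 was highest in theca, with arrays at 7.3 to 7.7 and a median of 7.55. The values were 6.7, 6.5, 7.4 and 6.8 in tunica albuginea, 7.3, 6.7, 6.4 and 6.0 in stroma close to follicles and 6.0, 6.5, 6.5 and 6.1 in interstitial stroma. Theca lay above every interstitial array, and 1 array each of tunica albuginea and stroma close to follicles reached into its range. PGRMC1 was higher in theca than in interstitial stroma by 1.23 ± 0.21 (limma adjusted p = 0.00028; 2.34-fold), than in stroma close to follicles by 0.90 (adjusted p = 0.0034) and than in tunica albuginea by 0.65 (adjusted p = 0.024). The last call was lost without tunica albuginea replicate 1, 2 or 4 (adjusted p up to 0.088).

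PGRMC2, by contrast, was the steadiest of the set. All 18 arrays lay between 7.5 and 8.1, and the 4 interstitial arrays shared the value 7.7. Theca averaged 7.75 ± 0.12 (SD, n = 6) and the laser-captured mean was 7.75, with a 95% interval of the difference of -0.19 to 0.19.

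**Figure D3:**
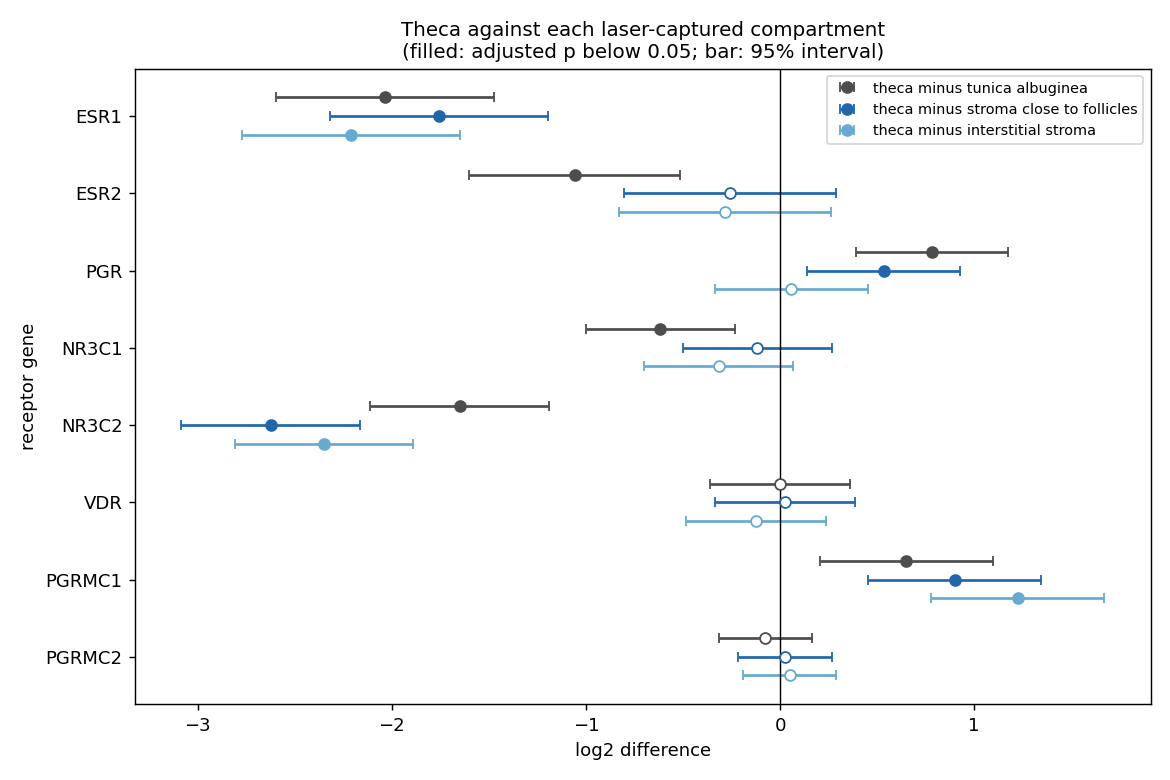
Log2 difference (x axis) of each receptor gene (y axis) in theca minus tunica albuginea, minus stroma close to follicles and minus interstitial stroma, with 95% intervals; filled symbols passed at an adjusted p below 0.05. ESR1 and NR3C2 lie left of 0 and PGRMC1 right of 0 in all 3 comparisons, while ESR2 and NR3C1 are filled only against tunica albuginea.

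Over the 6 pairs of compartments, 14 of 48 gene-by-pair tests passed, 13 of them against theca. Theca against interstitial stroma gave 1 higher and 2 lower receptor genes, theca against stroma close to follicles 2 and 2, and theca against tunica albuginea 2 and 4, that is 3, 4 and 6 of 8 genes beside 28.9%, 31.1% and 34.4% of all clusters. Between tunica albuginea and interstitial stroma limma called none of the 8, with 4 genes (ESR2, PGR, NR3C2 and PGRMC1) at an unadjusted p below 0.05. In that comparison 1.52% of all clusters passed at an adjusted p below 0.05, 0.945% higher and 0.575% lower. Between stroma close to follicles and interstitial stroma limma called none either, with PGR alone at an unadjusted p below 0.05. There 0.0336% of all clusters passed at an adjusted p below 0.05. The share of all clusters at an unadjusted p below 0.05 is not given here, so the unadjusted counts have no background beside them.

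**Figure D4:**
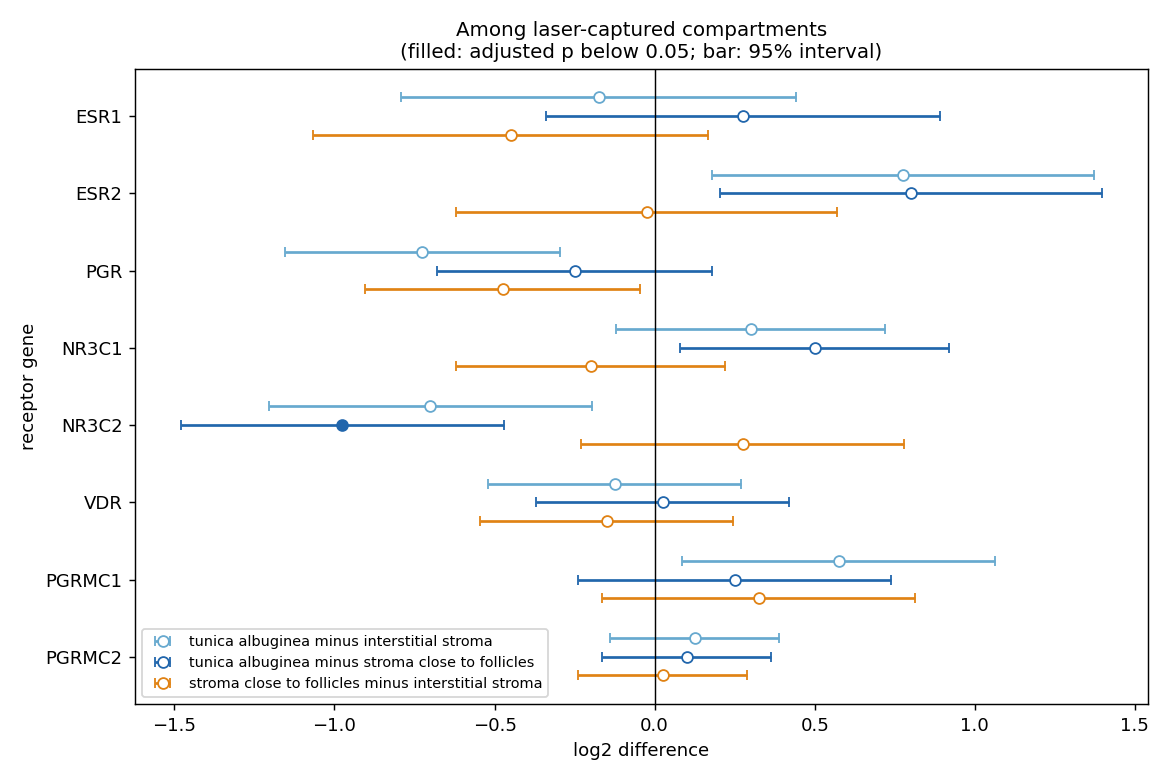
Log2 difference (x axis) of each receptor gene (y axis) between pairs of laser-captured compartments, with 95% intervals; filled symbols passed at an adjusted p below 0.05. The 1 filled symbol is NR3C2 in tunica albuginea minus stroma close to follicles (-0.97).

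Theca replicate 6 stood toward the stroma for most receptor genes. It was the highest theca array for ESR1 (5.3), NR3C1 (6.7) and NR3C2 (3.8), and the lowest for PGR (5.2). For ESR2 it was also the highest (7.1), but above every array of both kinds of stroma (highest 6.5 and 6.4). There replicate 4 (6.1) was nearest to the laser-captured mean of 6.45. Replicate 6 was the theca array nearest to that mean, alone or tied, for the other 5 of the 6 receptor genes without VDR and PGRMC2. It was nearest for 33.7% of all clusters called between theca and that mean, against 14% to 28.9% for the other theca arrays. Its fibroblast marker mean was the highest of theca (9.38, against 8.78 to 9.18) and its steroidogenic marker mean was 9.18, against 8.9 (replicate 2) to 10.1. Fibroblast marker means did not separate theca from stroma close to follicles (8.95 to 9.08). Its mean of smooth muscle and pericyte markers, mostly lower in theca, was 6.1, below theca replicates 3 (6.36) and 5 (6.34). The part of adhering stroma was not tested. This array was singled out after its values were seen, and without it ESR1, NR3C2 and PGRMC1 still passed against each laser-captured compartment.

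The genes most like each receptor were taken by Pearson's r over the 18 arrays among the genes brighter than the median cluster (9576, or 9577 for VDR). The 18 arrays share the contrast of theca with stroma, which by itself gives a high r, so r over the 12 laser-captured arrays stands beside it. Those 12 arrays were also part of the choice, so the second r is no independent check. ESR1 was most like RASSF8 (0.97; 0.75 in laser-captured arrays), AKAP12 (0.96; 0.78) and NFIB (0.95; 0.75). NR3C2 was most like SOX4 (0.97; 0.87), SFMBT2 (0.97; 0.82) and TMOD1 (0.96; 0.78). SOX4, a transcription factor, averaged 5.28 in theca, 7 in tunica albuginea, 8.05 in stroma close to follicles and 7.70 in interstitial stroma, the same order of compartments as NR3C2.

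PGR was most like SGMS1 (0.87; 0.92), KITLG (0.83; 0.86) and SPON1 (0.83; 0.80). KITLG, the ligand of the KIT receptor, averaged 6.78 in theca, 4.72 in tunica albuginea, 5.30 in stroma close to follicles and 5.95 in interstitial stroma. PGRMC1 was most like RPN1 (0.87; 0.63), a subunit of the oligosaccharyltransferase of the endoplasmic reticulum, TMED9 (0.87; 0.63), a protein of vesicle traffic, and COMMD4 (0.87; 0.68). ESR2 was most like FAM210B (0.90; 0.76), CYP4V2 (0.88; 0.81) and NUCB1 (0.85; 0.82), and NR3C1 most like MARCHF8 (0.88; 0.86), MAP10 (0.87; 0.81) and FLOT1 (0.86; 0.85). VDR was most like SETD2 (0.79; 0.88), SCRN3 (0.68; 0.70) and QSER1 (0.68; 0.70), and PGRMC2 most like SLC35A2 (0.81; 0.79), NME3 (0.75; 0.81) and SLC19A2 (0.70; 0.66), but these 2 receptor genes hardly varied between arrays.

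The receptors act with chaperones, coregulators and enzymes that make or remove their ligands, and these were described from lists of 130 measured genes. Among other nuclear receptors, 21 of 38 were lower in theca than in the laser-captured mean and 7 higher, 55.3% and 18.4% beside 22.2% and 19.6% of all clusters, with a median of -0.38. The immediate early orphan receptors NR4A1 (-4.08 ± 0.24, limma adjusted p = 4.8e-10), NR4A2 (-2.77) and NR4A3 (-2.71) and the thyroid hormone receptor THRB (-3.14 ± 0.10, adjusted p = 1.4e-13) were the lowest. NR4A1 and THRB averaged 4.28 and 3.90 in theca, against 8.37 and 7.04 in the laser-captured mean. THRB and NR4A3 (3.47) were under the array median in theca, so their differences may be lower limits. NR3C2 and ESR1 came next in size.

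**Figure D5:**
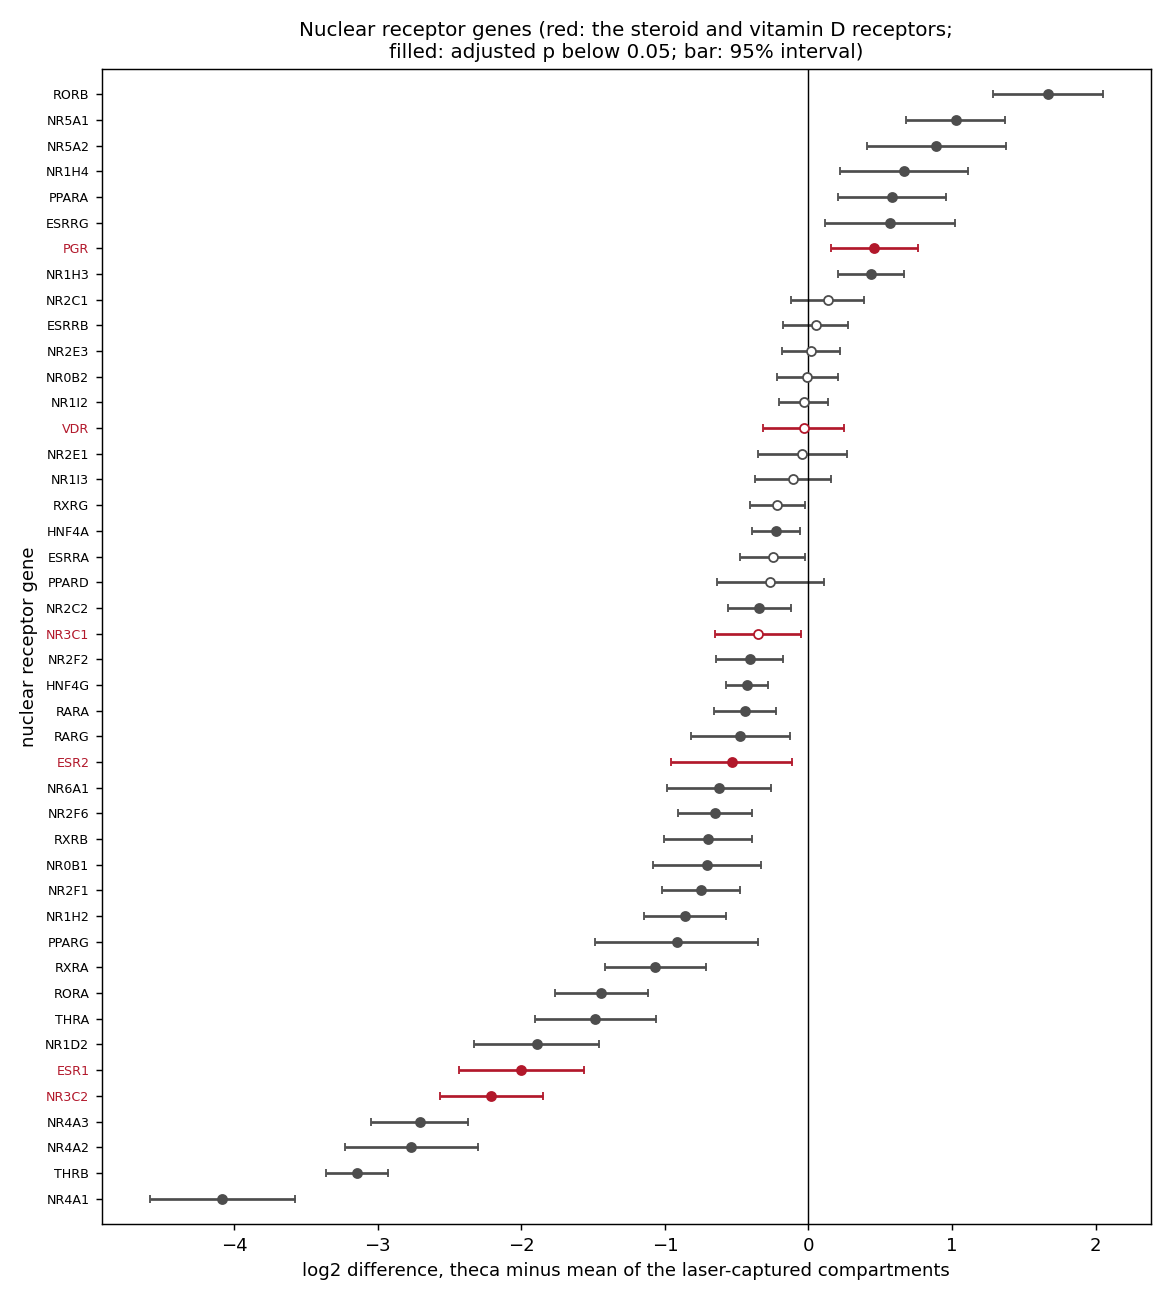
Log2 difference in theca minus the mean of the laser-captured compartments (x axis) for 38 other nuclear receptor genes (grey) and the 6 nuclear receptors described here (red), sorted, with 95% intervals; filled symbols passed at an adjusted p below 0.05. ESR1 (-2.00) and NR3C2 (-2.21) lie near the low end, above THRB and the NR4A genes, and PGR (0.46) lies among the genes higher in theca.

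VDR binds DNA together with a retinoid X receptor. RXRA (-1.07 ± 0.17, limma adjusted p = 5.3e-05) and RXRB (-0.70) were lower in theca, as was the vitamin D response gene THBD (-0.93), 3 of 10 genes of that list, with none higher. That share, 30%, is near the 22.2% of all clusters, and RXRA (3.77) and THBD (3.6) were under the array median in theca. Between tunica albuginea and the 2 kinds of stroma, NR2F1, an orphan receptor of mesenchyme, was lower in tunica albuginea (7.03, against 8.15 in stroma close to follicles and 8.18 in interstitial stroma; -1.15 ± 0.18 against interstitial stroma, limma adjusted p = 0.0027), and the retinoic acid receptor RARG was higher than in stroma close to follicles (5.45 against 4.30; adjusted p = 0.0081).

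Of 11 measured chaperones that hold receptors ready for ligand, 6 were higher in theca than in the laser-captured mean and 1 lower, with a median of 0.42. That is 54.5% and 9.09%, beside 19.6% and 22.2% of all clusters. HSPA4 (1.09 ± 0.10, limma adjusted p = 2.1e-07), FKBP5 (0.92), HSPA8 (0.91) and PPP5C (0.57) rose. FKBP5, a co-chaperone that lowers glucocorticoid receptor activity and is itself induced by it, was low in tunica albuginea: it averaged 5.90 ± 0.50 there, against 7.25 ± 0.21 in stroma close to follicles and 7.05 ± 0.47 in interstitial stroma (SD, n = 4 each). The differences were -1.35 ± 0.23 (limma adjusted p = 0.0021) and -1.15 ± 0.23 (adjusted p = 0.014). Tunica albuginea had the highest mean of NR3C1 and the lowest mean of FKBP5 of the 4 compartments, although NR3C1 passed there only against theca.

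Of 18 corticosteroid response genes, 5 were higher in theca and 5 lower (27.8% each, near the 19.6% and 22.2% of all clusters), with CEBPD (-1.77 ± 0.20), DUSP1 (-1.21), ERRFI1 (-1.07) and PDK4 (0.98) the largest. In tunica albuginea against stroma close to follicles 2 genes rose, MT2A (2.20 ± 0.50, limma adjusted p = 0.018) and CRISPLD2 (1.53 ± 0.41, adjusted p = 0.045), and 2 fell. That is 11.1% each way, beside 1.85% higher and 1.95% lower of all clusters in that comparison. The 2 that fell were FKBP5 and SGK1, a kinase induced through NR3C1 and NR3C2, which averaged 5.10 in tunica albuginea against 6.30 (-1.20 ± 0.28, adjusted p = 0.02). SGK1 was named after its values were seen. It was also lower in tunica albuginea than in interstitial stroma (-1.53 ± 0.28, limma adjusted p = 0.007), and higher in theca than in tunica albuginea, at 6.93 against 5.10 (1.83 ± 0.25, adjusted p = 2.5e-05).

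Coregulators were lower in theca for 10 of 19 genes and higher for 3, with a median of -0.25. That is 52.6% lower and 15.8% higher, beside 22.2% and 19.6% of all clusters. TBL1X (-0.83 ± 0.11, limma adjusted p = 6.7e-06), the acetyltransferase CREBBP (-0.82) and NCOA7 (-0.73) fell, and the deacetylase HDAC3 rose (0.72). Between laser-captured compartments the coactivator PPARGC1A (-1.18 ± 0.26, adjusted p = 0.017) and GPS2 (-0.72 ± 0.14, adjusted p = 0.0055) were lower in tunica albuginea than in stroma close to follicles; PPARGC1A was below the array median in tunica albuginea (3.23 against 4.40).

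Ligand-modifying enzymes were higher in theca for 6 of 16 genes and lower for 1, or 37.5% and 6.25% beside 19.6% and 22.2% of all clusters. HSD17B12 (1.99 ± 0.17, limma adjusted p = 5.6e-08), HSD17B1 (1.11 ± 0.09, under the array median in every laser-captured compartment), which forms oestradiol from oestrone, HSD17B7 (0.92) and the vitamin D 25-hydroxylase CYP2R1 (0.80) rose. CYP2R1 was also higher in tunica albuginea than in stroma close to follicles (4.05 against 3.20; adjusted p = 0.04), with both means under the array median. Oestrogen and progesterone response genes gave 2 higher and 3 lower of 16 (12.5% and 18.8%, under the 19.6% and 22.2% of all clusters), with CXCL12 (-1.50 ± 0.32, limma adjusted p = 0.0011), FOXO1 (-0.88) and RARA (-0.44) lower and GREB1 (0.52 ± 0.19, adjusted p = 0.033) higher. In tunica albuginea IGFBP4 was higher than in stroma close to follicles by 0.47 (adjusted p = 0.049).

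Of 8 membrane progestin receptors and relatives of the PGRMC proteins, 3 were higher and 3 lower in theca (37.5% each, beside 19.6% and 22.2% of all clusters). CYB5D2, of the same haem-binding family as PGRMC1, rose by 0.93 ± 0.22 (limma adjusted p = 0.0024) and the membrane progestin receptor PAQR8 by 0.39, while PAQR5 (-0.64 ± 0.21, adjusted p = 0.022) and PAQR9 (-0.53) fell. PAQR8 and PAQR9 lay under the array median in all 4 compartments, where a signal may be background. None of the 8 passed between laser-captured compartments by limma, with 2 at an unadjusted p below 0.05 between stroma close to follicles and interstitial stroma. The share of all clusters at that unadjusted level is not given here.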

How the data were processed

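Gene expression was measured on bovine whole-transcript arrays. The values are log2 signals as the authors deposited them: they were made with RMA in Partek 6.5, per the submitters' processing notes, and are given to 1 decimal. RMA as usually run corrects background and quantile-normalises arrays, so that a broad shift of an array would be removed. The array build is not given in the sources used here, so no coordinates are printed. Cluster names came from the platform annotation: 18457 of 26773 clusters carried 1 gene symbol, 688 several and 7628 none. The 8 receptor genes, like the lists of related genes and markers, were chosen with earlier results of these data known.

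Compartments were taken from the sample titles. A source label that names all samples as theca was left aside. Group means of all 18 arrays were fitted with limma 3.58.1 (R 4.3.3; lmFit, contrasts, eBayes), with Benjamini-Hochberg adjustment over all 26773 clusters in each comparison and a threshold of 0.05. The fit was tested on simulated data. A gene was represented by its brightest cluster with a single symbol. All p-values printed for genes are limma's.

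Genes named from a list are those with the largest differences among those that passed: up to 4 in theca against the laser-captured mean, and up to 2 between laser-captured compartments. The genes most like each receptor were named by their r. SGK1 was named after its values were seen, as the text says. Single genes of the marker lists were examples outside this rule, picked with their values known. FKBP5, RARA, CYP24A1 and the retinoid X receptors stand in 2 lists each. Replicate numbers are shared between compartments, but same-numbered arrays deviated together little or not at all (r of -0.0479 to 0.145), so they were not treated as pairs. The highest r were those of interstitial stroma with tunica albuginea, all positive (0.0955 to 0.145). Sharing of animals between these compartments was not tested, and a replicate block moved ESR2 across the threshold between them. Alternatives were a replicate block, a filter on dim clusters, centring, an intensity trend with a robust prior, array weights, fits of the compared arrays alone, the mean of a gene's clusters, and leaving out each array.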

Additional observations from a re-analysis of the deposited data

Results flagged for a closer look

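Of 40 groups of values (10 clusters of the 8 receptor genes in 4 compartments), 1 held an array that stood apart by Dixon's test: in the second, dimmer ESR1 cluster, replicate 4 of stroma close to follicles had a log2 signal of 3.7, against 4.2, 4.2 and 4.3 on the other arrays of that group. Chance flags about 1 in 20 groups. In the brighter ESR1 cluster that array was at 6.4, inside the range of its group (5.6 to 6.5).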

How the results depend on the processing

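No difference of a receptor gene that passed changed sign under any alternative. Of the differences (8 genes in 7 comparisons), alternatives other than leaving out an array moved 11 across the threshold and left 366 on the same side. NR3C1 was lower in theca than in the laser-captured mean with the replicate block (-0.46, adjusted p = 0.0344), without the dimmest 40% of clusters (-0.35, 0.0494), with centred arrays (-0.43, 0.0179) and with array weights (-0.36, 0.0303). ESR2 passed in tunica albuginea over interstitial stroma with the replicate block (adjusted p = 0.0422) and with the compared arrays alone (0.0461), and likewise over stroma close to follicles (0.02 and 0.0406). PGRMC1 in theca against tunica albuginea was lost with the block (0.68, adjusted p = 0.0629). The other 2, of PGR with centred arrays and of NR3C2 with the compared arrays alone, are given with those genes. The cause was not tested.

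The block gave 1 receptor gene between tunica albuginea and interstitial stroma (0 without it) and 2 between tunica albuginea and stroma close to follicles (1 without it). The compared arrays alone also gave 1 in the first of these. Leaving out 1 array gave 3 (without theca replicate 1) to 6 in theca against the laser-captured mean, 0 to 1 in tunica albuginea against interstitial stroma (1 without theca 6 or interstitial 1) and 0 to 2 in tunica albuginea against stroma close to follicles (2 without theca 6; 0 without stroma close to follicles 1 or 2 or tunica albuginea 2 or 3). Of all clusters, 9 passed between stroma close to follicles and interstitial stroma, with 5 under the block, 3 without dim clusters, 14 with the trend, 0 with the compared arrays alone (fewer arrays) and 0 to 152 leaving out 1 array (152 without stroma close to follicles 3). The 407 clusters of tunica albuginea against interstitial stroma became 204 with the compared arrays alone and 219 to 477 leaving out 1 array. The 1017 clusters of tunica albuginea against stroma close to follicles became 434 and 627 to 1022. Fitting the compared arrays alone is the same fit as above for the laser-captured mean and the F test. Values are rounded to 1 decimal and dim signals may be background. Among the receptor genes this limits VDR in every compartment, NR3C2 and ESR1 in theca, and the second clusters of ESR1 and PGR. Among the other genes it limits those given above as under the array median.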
